A study of Mus musculus with 3 samples.

Results

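Interleukin 9 and the genes that regulate its lineage were followed in mouse CD8 T cells given cholesterol. The 9 genes were taken by symbol: the cytokine genes Il9 and Il10, the interleukin-4 receptor chain gene Il4ra with its signal transducer gene Stat6, and the transcription factor genes Irf4, Batf, Gata3, Spi1 and Maf. Of the 9 genes, 8 had a named probe set, 1 each, among the 19505 named genes on the arrays. Gata3, whose product is the main regulator of type 2 lymphocytes, had no named probe set and was not measured here.

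The 3 samples were CD8 T cells of the mouse, activated by CD3 and CD28 stimulation and cultured with cytokines for the Tc1 state, in which CD8 cells become cytotoxic effectors that make interferon-gamma. They comprised 1 sample without added cholesterol (the control), 1 with 0.5 µg/ml cholesterol and 1 with 0.75 µg/ml cholesterol, each measured on 1 array. The design sets each dose against the untreated cells. The labels give no strain, genotype, animal age, number of animals, time of treatment or carrier for the cholesterol, so effects of cholesterol and of its carrier cannot be told apart. With 1 array per group there are no replicates, no test was made, and precision is limited by the number of arrays. The culture was not one that drives the interleukin-9 state, as the labels name only Tc1 cytokines.

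Interleukin 9 is a growth factor for T cells and mast cells and is made by the Th9 subset of CD4 T cells and the Tc9 subset of CD8 T cells, which arise when interleukin 4 and TGF-beta act together. Interleukin 4 signals through IL-4R alpha and STAT6, which induces GATA3, while the ETS factor PU.1 (the product of Spi1) and the pair of IRF4 and BATF act at the Il9 locus in T helper cells. BATF pairs with JUN proteins on AP-1 sites and recruits IRF4 there. The factor c-MAF, encoded by Maf, drives interleukin 4 and interleukin 10 genes in T helper cells. T cells in Tc1 conditions use IRF4 and BATF as well, so these factors are not specific to the interleukin-9 state.

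The upstream sequences of Il9, Irf4 and Batf are shown because Il9 is the gene whose regulators are described and Irf4 and Batf were the above-background regulators with the highest differences at 0.75 µg/ml. Each run covers the 250 bases before the gene's annotated start, from RefSeq on GRCm38.p6, 5′ to 3′ on the gene's strand, at chr13:56482258-56482507 (minus strand) for Il9, chr13:30748983-30749232 (plus strand) for Irf4 and chr12:85686470-85686719 (plus strand) for Batf. Capitals mark matches on either strand to any of 7 motifs.
Il9: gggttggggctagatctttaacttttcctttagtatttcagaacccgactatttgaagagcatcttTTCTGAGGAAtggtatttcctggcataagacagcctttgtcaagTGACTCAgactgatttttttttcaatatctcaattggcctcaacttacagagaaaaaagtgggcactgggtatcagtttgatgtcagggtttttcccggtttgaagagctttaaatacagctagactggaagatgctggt
Irf4: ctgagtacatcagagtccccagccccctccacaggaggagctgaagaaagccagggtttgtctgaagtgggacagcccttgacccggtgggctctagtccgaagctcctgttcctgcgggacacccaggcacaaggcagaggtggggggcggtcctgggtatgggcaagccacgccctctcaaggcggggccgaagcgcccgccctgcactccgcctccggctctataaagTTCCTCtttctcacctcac
Batf: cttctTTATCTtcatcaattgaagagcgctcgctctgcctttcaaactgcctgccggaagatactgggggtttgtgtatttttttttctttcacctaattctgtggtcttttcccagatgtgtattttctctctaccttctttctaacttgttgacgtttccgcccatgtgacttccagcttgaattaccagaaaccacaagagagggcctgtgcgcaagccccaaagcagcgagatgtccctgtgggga

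For AP-1 the letters searched were TGANTCA. For STAT6 the spacing that it prefers, TTCNNNNGAA, was searched, and for other STAT proteins TTCNNNGAA. The IRF motif was GAAANNGAAA and the NF-kappaB motif GGGANNTTCC. PU.1 was searched as GAGGAA, while for the GATA family of factors the letters used were AGATAA. The Il9 window held the AP-1 letters as TGACTCA at 140 to 134 bases before the start, which 6.75% of 32851 RefSeq upstream windows of this length also held. It also held the STAT6 spacing as TTCTGAGGAA at 184 to 175 bases before the start, a match found in 5.85% of the windows, and the PU.1 letters lay inside that same match. The Irf4 window held only the PU.1 letters, read on the other strand, as did 23.3% of windows in either orientation, and the Batf window held only the GATA letters, found in 9.99%. Of the 5 measured members with such a window, which also include Il4ra and Stat6, Il9 was the only one with the AP-1 or the STAT6 letters. A match describes the letters and not a bound site, and the absence of a match says only that the letters are not in that window.

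The first question was whether each gene was above background. The background level was set at 102, the highest 95th percentile of the 5222 negative-control probe sets over the 3 arrays, and a probe set at or under it is called under background. By this level 4 of the 8 measured genes, Irf4, Batf, Il4ra and Stat6, were above background on all 3 arrays, and the other 4, Il9, Il10, Maf and Spi1, were under it on all 3. Over all named genes the share above it was 39.4% in the control, 39.5% at the lower dose and 39.0% at the higher. In the same order the median negative control was at 13.3, 13.0 and 12.6. The median transcript probe set was at 43.3, 43.5 and 44.5, so it too was under this level. A gene called under background is therefore not shown to be absent.

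**Figure D1:**
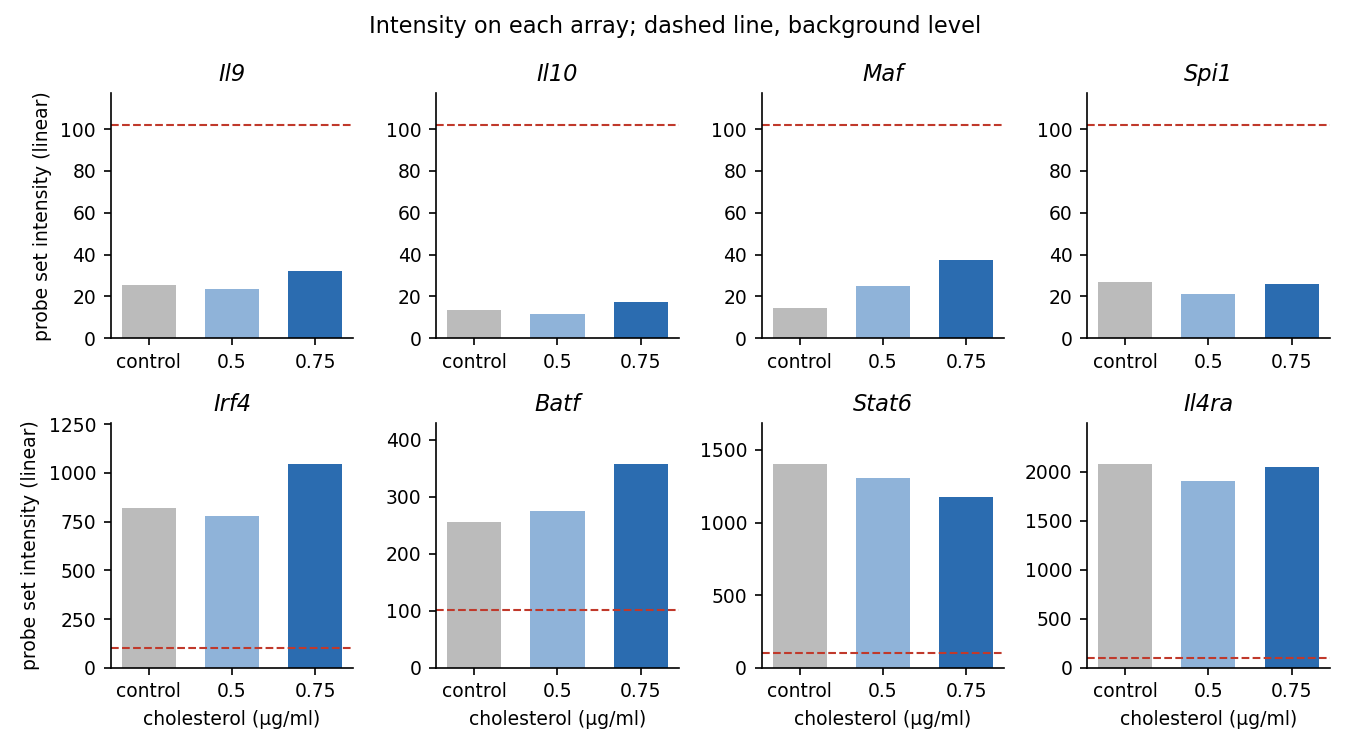
Probe set intensity (linear axis from 0, a separate scale per gene) in the control and at 0.5 and 0.75 µg/ml cholesterol, with 1 array per bar, no error bars for lack of replicates, and the background level of 102 as a dashed line. Il9, Il10, Maf and Spi1 stay under the line on every array, and Irf4, Batf, Stat6 and Il4ra stay above it.

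Il9 itself was under background at every dose. Its probe set had an intensity of 25.5 in the control, 23.3 with 0.5 µg/ml and 32.2 with 0.75 µg/ml, which is 0.25, 0.23 and 0.32 times the background level in that order. Of the negative controls, 27.3% were brighter than Il9 on the control array, 28.6% on the array at 0.5 µg/ml and 20.1% on that at 0.75 µg/ml. No fold is given for Il9, since both sides of each comparison were under background. The highest of its 3 values was on the array at 0.75 µg/ml, and all 3 lay within the bulk of the negative controls.

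Il10, which encodes an anti-inflammatory cytokine, was at 13.4 in the control, 11.4 with 0.5 µg/ml and 17.6 with 0.75 µg/ml. On these arrays 49.7%, 55.5% and 37.9% of negative controls were brighter, so Il10 sat near the middle of the negative controls on each. Spi1 was at 26.7, 21.4 and 26.1 in the same order, with 26.2%, 31.0% and 25.7% of negative controls brighter. The array at 0.5 µg/ml had the lowest value of Il9, Il10 and Spi1, all of them under background.

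Maf, like Il9, was under background on every array. It was at 14.3 in the control, 24.8 with 0.5 µg/ml and 37.7 with 0.75 µg/ml, or 0.14, 0.24 and 0.37 times the background level. The share of negative controls brighter than Maf was 47.1% in the control, 26.7% with 0.5 µg/ml and 16.9% with 0.75 µg/ml. Its deposited values differed by more than the 2-fold threshold between 0.75 µg/ml and the control, but with values under background raised to that level the difference was 0.00. No fold and no direction are therefore given for Maf.

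**Figure D2:**
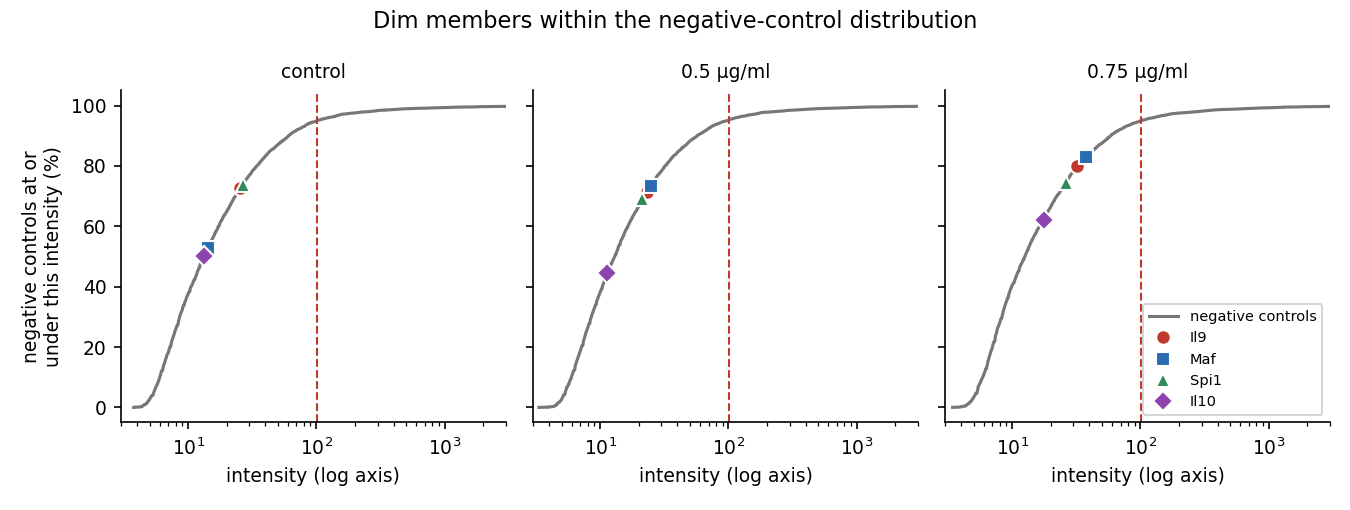
Cumulative share of negative-control probe sets (y axis, percent) at or under each intensity (x axis, log scale) on the control array and at 0.5 and 0.75 µg/ml cholesterol, with Il9, Maf, Spi1 and Il10 marked on the curve and the background level of 102 dashed. All 4 genes lie left of the dashed line on each array, so no direction is read from their positions.

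Irf4, the partner of BATF on composite AP-1 and IRF sites, was highest at 0.75 µg/ml. Its intensity was 818 in the control, 777 with 0.5 µg/ml and 1046 with 0.75 µg/ml. The control and the array at 0.5 µg/ml were close, and the array at 0.75 µg/ml stood above both. Irf4 was 1.28-fold higher at 0.75 µg/ml than in the control (log2 difference 0.36), and 1.35-fold higher than at 0.5 µg/ml (0.43). At 0.5 µg/ml it differed from the control by -0.07 on the log2 scale.

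Batf was likewise highest at 0.75 µg/ml. Its intensity was 255 in the control, 275 with 0.5 µg/ml and 358 with 0.75 µg/ml, so its 3 values followed the dose. Batf was 1.40-fold higher at 0.75 µg/ml than in the control (log2 difference 0.49) and 1.08-fold higher at 0.5 µg/ml than in the control (0.11). Between the doses it was 1.30-fold higher at 0.75 than at 0.5 µg/ml (0.38).

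Stat6 ran the other way. Its intensity was 1404 in the control, 1308 with 0.5 µg/ml and 1174 with 0.75 µg/ml, with the lowest value at the higher dose. Its log2 difference against the control was -0.10 at 0.5 µg/ml and -0.26 at 0.75 µg/ml, and that between 0.75 and 0.5 µg/ml was -0.16.

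Il4ra, the receptor chain upstream of STAT6, was the brightest probe set of the members. It was at 2079.6 in the control, 1901 with 0.5 µg/ml and 2051 with 0.75 µg/ml, and its highest array was 1.09 times its lowest. Its log2 difference against the control was -0.13 at 0.5 µg/ml and -0.02 at 0.75 µg/ml. Of the 4 members above background it thus differed least from the control at 0.75 µg/ml and most at 0.5 µg/ml. Receptor and transducer genes were thus both bright in Tc1 cells at all doses, and neither was higher with cholesterol.

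With no replicates, the spread between arrays was described with 965 positive-control probe sets that were above background on all 3 arrays; what these probe sets target is not given in the sources used here. The central 95% of their log2 differences ran from -0.43 to 0.51 for 0.5 µg/ml against the control, from -0.49 to 0.56 for 0.75 µg/ml against the control and from -0.48 to 0.51 between the doses. The differences of Irf4, Batf, Stat6 and Il4ra lay inside these ranges in all 3 comparisons. Of the positive controls, 6.53% differed between 0.75 µg/ml and the control by at least as much as Batf, in either direction, and 15.0% by at least as much as Irf4. For Stat6 that share was 28.0%.

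Set against the 7309 named genes above background on all 3 arrays, Batf at 0.75 µg/ml lay just past the upper edge of the central 95%, which ran from -0.68 to 0.48. Of these genes 2.38% were at least as much higher than the control as Batf, and 6.27% at least as much higher as Irf4. Between the doses, 2.49% were at least as much higher at 0.75 µg/ml as Irf4 and 3.72% as Batf. Stat6 was less apart, since 14.7% of the genes were at least as far below the control at 0.75 µg/ml. At 0.5 µg/ml against the control Irf4, Batf, Stat6 and Il4ra were all within the central 95% of genes, -0.34 to 0.32.

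**Figure D3:**
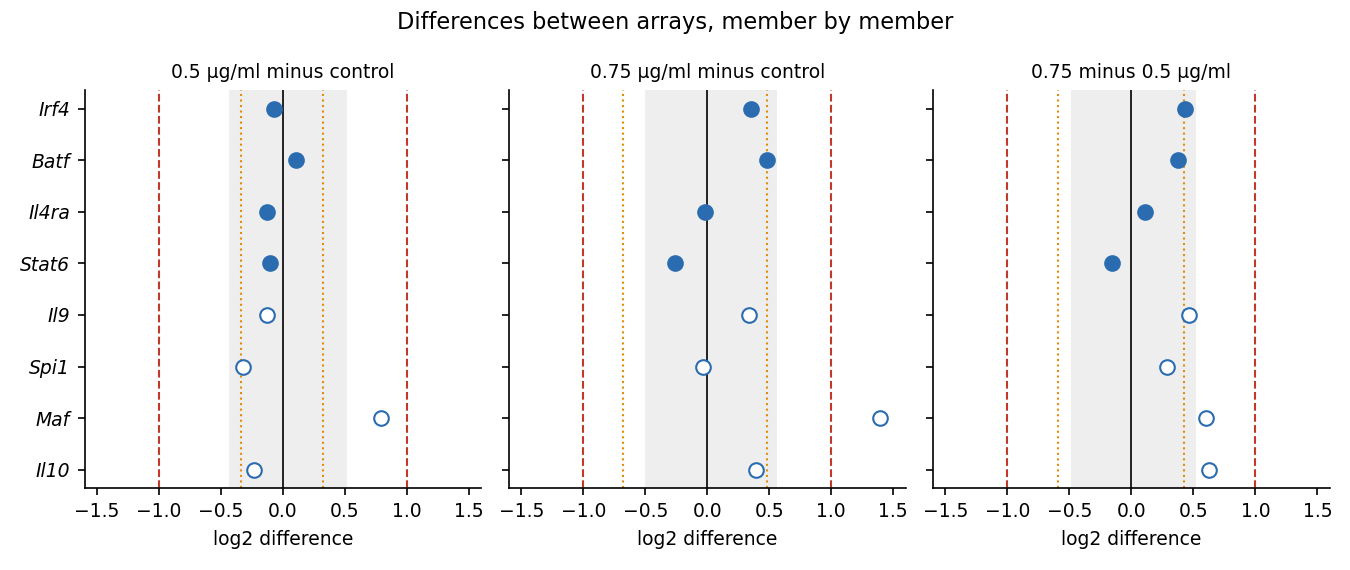
Log2 difference (x axis) of each measured member in the 3 comparisons, 1 panel each, with filled points for genes above background and open points where both arrays were under it. Grey bands hold the central 95% of positive controls, dotted lines that of genes above background on all 3 arrays, and dashed lines mark 2-fold; only the open point of Maf at 0.75 µg/ml against the control passes a dashed line.

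Counted by the threshold of at least 2-fold, 0 of the 8 measured members differed at 0.5 µg/ml from the control, where 0.277% of all named genes did, or 0.0154% when values under background were first raised to that level. At 0.75 µg/ml against the control 1 of the 8 did, Maf, where 1.49% of named genes did in either direction and 0.42% were higher. With values under background raised to the background level the count of members was 0, beside 0.579% of named genes. Between 0.75 and 0.5 µg/ml 0 of the 8 did, beside 1.13% of named genes, or 0.446% with dim values raised. A count of 1 among 8, resting on a probe set under background, does not tell the members from other genes.

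The median log2 difference of the 8 measured members was -0.11 at 0.5 µg/ml and 0.35 at 0.75 µg/ml against the control, beside 0.00 and 0.01 over all named genes. Between the doses it was 0.40, beside 0.00. Of the 4 members above background 3 were higher at 0.75 than at 0.5 µg/ml, all but Stat6, where 46.7% of named genes above background on all 3 arrays were higher. The other 4, Il9, Il10, Maf and Spi1, were under background on both arrays, so no direction is read from them. With dim values raised, all 3 member medians were 0.00. Over the 4 members above background, which are not all members, the medians were -0.09, 0.17 and 0.24 in the same order of comparisons. Against the control, 1 of these 4 was higher and 3 lower at 0.5 µg/ml. At 0.75 µg/ml 2 were higher and 2 lower, so they had no common direction. Both comparisons against the control share its array, so their differences are not independent of each other.

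The cells carried their lineage markers. All 5 measured CD8 T cell markers were above background on each array, among them Cd8a at 4225, 4164 and 3313 and Cd3e at 4364, 4650.1 and 4594 in the control and at 0.5 and 0.75 µg/ml. At 0.75 µg/ml against the control the log2 difference was -0.35 for Cd8a, -0.34 for Cd8b1 and -0.09 for Cd3g. It was 0.07 for Cd3e and 0.10 for Gzmb. Cd8b1 is named after its values were seen. All 5 lay inside the central 95% of the positive controls in that comparison, -0.49 to 0.56. As these are bulk samples, fewer cells of a type and less RNA per cell cannot be told apart. For macrophages, dendritic cells and monocytes, in which PU.1 is abundant, 0 of 8 measured markers were above background on any array, with summed intensities of 169, 178 and 174 in the order of dose, and the defining marker Adgre1 was at 20.4, 20.5 and 18.5.

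Among markers of mast cells and basophils, which can make and answer interleukin 9, 1 of 6 was above background on the control array and 0 on the others, with summed intensities of 214, 173 and 146 in the order of dose. That gene, Kit, the stem cell factor receptor, was at 133 in the control, 88.3 with 0.5 µg/ml and 42.4 with 0.75 µg/ml, so it was at least 1.31-fold lower at 0.75 µg/ml than in the control. Without Kit the sum of the other 5 was 80.8, 84.8 and 103, with its highest value at 0.75 µg/ml, where the sum with Kit was lowest. These 5 were under background on all 3 arrays, among them Fcer1a at 15.4, 14.9 and 14.5 and Cpa3 at 11.3, 13.4 and 29.8, which mark mast cells more narrowly. Of 3 CD4 T cell markers only Zbtb7b was above background, at 178, 235 and 209, while Cd4 was at 61.6, 39.4 and 35.7. Of 4 measured B cell markers only Cd79b was above background on any array, at 111, 100.3 and 105. Of 4 genes that mark group 2 innate lymphoid cells only Il7r, which T cells share, was above background, at 1015, 1025 and 845. The part of other cells in the members' values was not tested.

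The pathways around interleukin 9 were described with 9 further lists of 92 genes, of which 81 were measured and 54 were above background on all 3 arrays. None of those 54 differed at least 2-fold in any of the 3 comparisons. At 0.5 µg/ml 22 of the 54 exceeded the control, and with 0.75 µg/ml 24 did, beside 53.9% and 51.0% of all named genes above background on all 3 arrays. Of the 81, 4 exceeded the control at least 2-fold at 0.75 µg/ml in the values as deposited (4.94%, beside 0.42% of named genes in that direction), and the same 4 genes also exceeded their values at 0.5 µg/ml at least 2-fold, as 0.39% of named genes did. In each the control value was under background. With dim values raised 0 of the 81 differed at least 2-fold in either direction at 0.75 µg/ml against the control, beside 0.579% of named genes, so the count of 4 rests on values under background. Of named genes 0.0769% were then at least 2-fold higher in that comparison and 0.0615% between the doses. The 4 genes were Csf2, Rxra, Ccr8 and Il17rb, the last of which and Ccr8 were under background on every array and are named after their values were seen. Csf2, the GM-CSF gene, was at 36.4 in the control, 46.8 with 0.5 µg/ml and 170.1 with 0.75 µg/ml, at least 1.67-fold higher at 0.75 µg/ml than in the control, and Rxra, the retinoid X receptor gene, was at 36.0, 53.5 and 172, at least 1.69-fold higher.

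Around the interleukin-4 receptor, 4 of 7 measured partner genes were above background throughout. The ligand gene Il4, named for its role after its values were seen, was at 8.35 in the control, 7.85 with 0.5 µg/ml and 9.73 with 0.75 µg/ml, under background like Il9. The kinase gene Jak1, whose product binds the receptor, was at 537, 540.4 and 538, within 0.01 of the control on the log2 scale at both doses. The adaptor gene Irs2 was at 356, 299 and 224, a log2 difference of -0.67 at 0.75 µg/ml against the control, and the feedback inhibitor gene Socs1 was at 1633, 1462 and 1524. Il13, which encodes the sister cytokine of interleukin 4 and was picked out after its values were seen, straddled the background level at 114, 85.5 and 136.

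For TGF-beta, the other inducing signal, 7 of 9 measured genes were above background on all 3 arrays, 4 of them higher and 3 lower at 0.75 µg/ml than in the control. The ligand gene Tgfb1 was at 1975, 2042 and 2329.7 in the control and at 0.5 and 0.75 µg/ml, a log2 difference of 0.24 at 0.75 µg/ml. The receptor gene Tgfbr2 was at 363 at 0.75 µg/ml against 506 in the control (-0.48), and its deposited value at 0.5 µg/ml equalled that of the control. The signal transducer genes Smad2 and Smad4 differed by 0.16 and -0.39 at 0.75 µg/ml against the control. The other receptor gene, Tgfbr1, named after its values were seen, was at 91.4 in the control, 95.8 with 0.5 µg/ml and 122 with 0.75 µg/ml, above background only at the higher dose.

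Interleukin-2 signalling through STAT5, which also acts on Il9 in T helper cells, had 6 of 7 measured genes above background. The receptor chain genes Il2ra and Il2rb differed at 0.75 µg/ml from the control by 0.28 and 0.03, and the STAT5 target genes Socs2 and Cish by 0.55 and -0.01. Socs2 was at 1181 in the control, 1380 with 0.5 µg/ml and 1728 with 0.75 µg/ml, single values in the order of dose. Its difference of 0.55 lay inside the central 95% of the positive controls, -0.49 to 0.56. It lay past that of the genes above background on all 3 arrays, -0.68 to 0.48. The gene of interleukin 2 itself, named after its values were seen, was under background on every array.

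Other signals that favour interleukin 9 gave values on both sides of the control at 0.75 µg/ml. The OX40 gene Tnfrsf4 was at 1713, 1805 and 1164 in the order of dose (-0.56 at 0.75 µg/ml against the control) and the GITR gene Tnfrsf18 at 3368, 3113 and 2602 (-0.37). Rbpj, which encodes the DNA-binding partner of Notch, was at 1858, 1889.6 and 2408, a log2 difference of 0.37 at 0.75 µg/ml, and Notch2 was at 424, 345 and 345 (-0.30). The interleukin-9 receptor gene Il9r, named after its values were seen because it completes the ligand and receptor pair, was under background on all 3 arrays, at 42.9, 34.4 and 33.8.

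Of the 14 partner transcription factor genes above background on all 3 arrays, 11 were lower and 3 higher than the control at 0.5 µg/ml, and 9 were lower and 5 higher at 0.75 µg/ml. Of all named genes above background on all 3 arrays, 53.9% were higher with 0.5 µg/ml and 51.0% with 0.75 µg/ml. The median log2 difference of the 14 at 0.75 µg/ml was -0.19, beside 0.01 for all those genes and 0.17 for the 4 members above background. Jun, whose product pairs with BATF, had the lowest difference and is named after its values were seen: it was at 370.4 in the control, 268 with 0.5 µg/ml and 188 with 0.75 µg/ml (-0.98 at 0.75 µg/ml against the control). Irf1, an interferon-induced factor that also acts at Il9 and is likewise named after its values were seen, was at 1388, 997 and 856 (-0.70). Jund and Rela, the p65 subunit gene of NF-kappaB, were at 2164 and 1564 at 0.75 µg/ml against 2009 and 1389.8 in the control (0.11 and 0.17). Hif1a was at 1704 at 0.75 µg/ml against 2512 in the control (-0.56). At the other end were Nfatc2, with the highest difference of the 14 (0.46), and Batf3 (0.21), both also named after their values were seen. The partner genes thus lay on both sides of the control. The differences of Irf4 and Batf lay inside the range of the positive controls, which is no limit of resolution. With 1 array per group a contrast with the partner genes was not tested, and none is drawn.

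**Figure D4:**
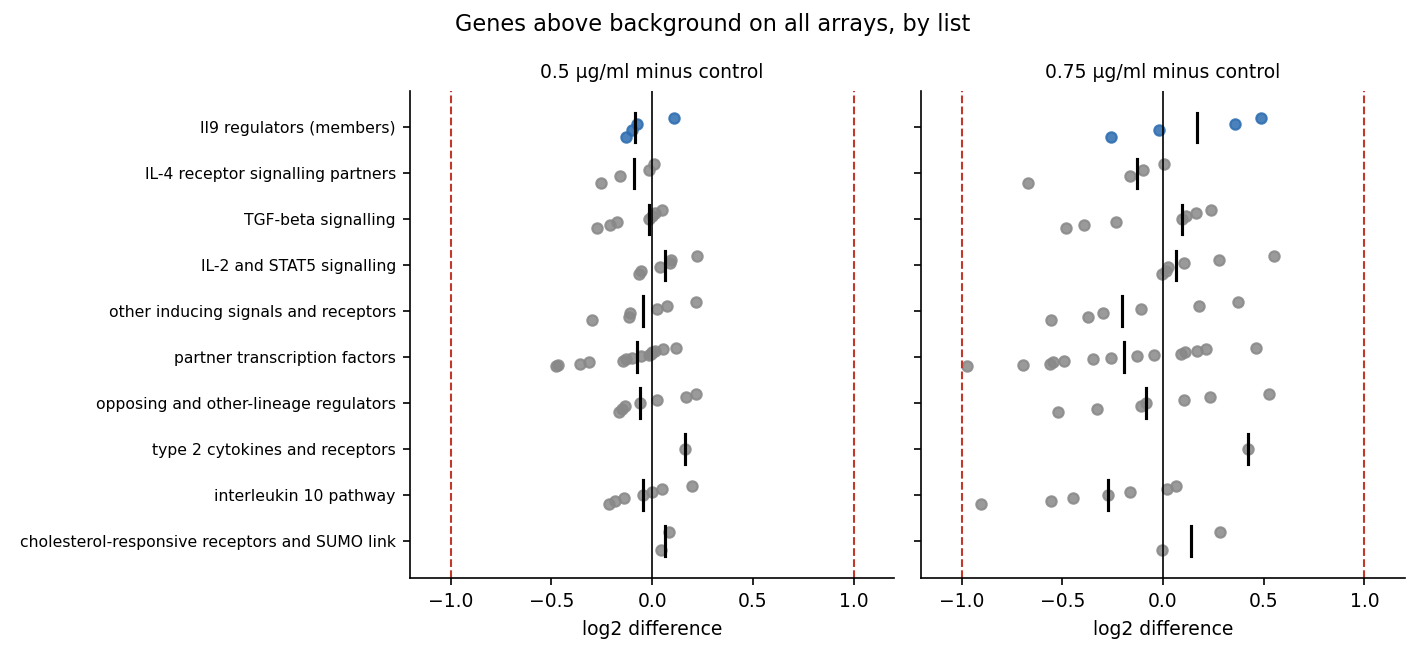
Log2 difference (x axis) of every gene above background on all 3 arrays, by list (y axis), for 0.5 µg/ml and for 0.75 µg/ml cholesterol against the control, with black bars at list medians and dashed lines at 2-fold. No point reaches a dashed line, and the partner transcription factors at 0.75 µg/ml reach from -0.98 to 0.46.

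Regulators of other CD8 states were described beside the members. Tbx21, the T-bet gene that opposes type 2 and type 9 programmes and was added to the named genes for that role after its values were seen, was at 240.3 in the control, 217 with 0.5 µg/ml and 227 with 0.75 µg/ml. Its relative Eomes was at 559, 630 and 806, a log2 difference of 0.53 at 0.75 µg/ml against the control. Id2, Foxp1 and Runx3 differed by 0.24, -0.11 and -0.33 at that dose. In all, 3 of these 7 genes above background were higher and 4 lower at 0.75 µg/ml than in the control.

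Among type 2 cytokine and receptor genes, 1 of 9 measured was above background on all 3 arrays. That gene, Ccr4, a chemokine receptor of type 2 cells, was at 304 in the control, 340.2 with 0.5 µg/ml and 406 with 0.75 µg/ml (0.42 at 0.75 µg/ml against the control). The cytokine genes Il3, Il5 and Il21, chosen after their values were seen, ran from 9.34 to 11.8 over the 3 arrays. Ccr8 was at 53.3 at 0.75 µg/ml against 12.9 in the control, under background on both.

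Around interleukin 10, 7 genes were above background on all 3 arrays, although Il10 itself was not. At 0.75 µg/ml 2 of the 7 were higher than the control and 5 lower, where 51.0% of all named genes above background were higher. The median of their log2 differences was -0.27, beside 0.01 for those genes, and none of the 7 differed at least 2-fold. Bhlhe40, a factor that represses Il10 in T helper cells, was at 1152 at 0.75 µg/ml against 2157 in the control (-0.90), while its value at 0.5 µg/ml, 2157, was close to that of the control. The receptor chain gene Il10ra was at 903 in the control, 779 with 0.5 µg/ml and 614 with 0.75 µg/ml (-0.56), and Il27ra and Il21r differed by -0.16 and 0.02 at 0.75 µg/ml. Sumo2 and Sumo3, 2 of the 4 measured genes of the list on sterol-responsive receptors and SUMO conjugation, differed by 0.28 and 0.00 at 0.75 µg/ml against the control, and Nr1h3, the LXR alpha gene, was under background at 33.0, 45.6 and 37.5.

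The genes whose 2 differences against the control were most like those of Il9 were Tmem217, Sh3bp4 and Scgb1b20, at Euclidean distances of 0.021, 0.024 and 0.024 log2 units, among 4628 named genes with a mean log2 level within 1 of Il9. For Maf they were Slc26a11, Klra7 and Mcpt8, at distances of 0.049, 0.15 and 0.151 among 4847 genes. Likeness was measured over 2 differences from 3 arrays, and all 6 genes were under background on every array, so the nearness describes dim probe sets.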

How the data were processed

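Per the labels, Trizol-extracted total RNA was biotin-labelled with a whole-transcript sense kit, and 1 array was run per sample. The authors deposited linear intensities for 28846 probe sets; how they corrected background and normalized is not given in the sources used here. The platform annotation gave 1 gene symbol to 19572 of 22206 transcript probe sets and several to 0, and the other 2634 stayed unnamed. All 19572 gene identifiers were found in the RefSeq table of GRCm38.p6. Where a gene had several probe sets, as 55 genes did, the brightest stood for it. No further normalization was applied, and log2 of the values was taken with no offset. Between arrays, 610 to 749 named genes had exactly equal values.

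A comparison subtracts the log2 values of 2 arrays, with at least 2-fold as the threshold and no test. Only the step to 1 value per gene and the 2-fold threshold were tested on simulated data, with large added shifts, and no other step was. A background level was taken from negative controls, and "at least" folds raise a dim value to it. The members and lists were chosen with earlier results of these data known. Named were the 9 members, list genes above background on at least 1 array that differed at least 2-fold, up to 4 list genes with the highest mean level, and the 3 genes nearest to Il9 and to members past the threshold; exceptions are marked. Tried as alternatives were quantile normalization, equal medians, 16 added before log2, dim values raised to background, the mean over probe sets, and a level filter. Python 3.11.15, numpy 2.4.6, pandas 2.3.3 and matplotlib 3.10.9 were used.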

Additional observations from a re-analysis of the deposited data

How the results depend on the processing

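The count of 1 member at least 2-fold different at 0.75 µg/ml against the control rests on Maf. It was 0 with 16 added before log2, 0 with values under background raised to that level, and 0 of the 4 members left by a filter at the median level, and it stayed at 1 under the other 3 alternatives. With dim values raised, the members' median difference was 0.00 for 0.75 µg/ml against the control and 0.00 between the doses, since 4 of the 8 measured members are dim. Of 132 differences of single members under the 6 alternatives, 119 moved by less than the SD of the positive controls and 13 moved further. All 13 were of Il9, Il10, Maf or Spi1. Many of the 132 could not move. Each measured member has 1 probe set, so the mean over probe sets changes none of them. Raising dim values and the level filter cannot change Irf4, Batf, Il4ra or Stat6. The only called value, that of Maf at 0.75 µg/ml against the control, was 0.00 with dim values raised and otherwise kept its sign where it was retained. Irf4 ranged from 0.32 to 0.36 and Batf from 0.45 to 0.51 at 0.75 µg/ml against the control, and Stat6 from -0.30 to -0.25.

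Over the 19505 named genes the count at least 2-fold different was lower with 16 added and with dim values raised. At 0.5 µg/ml against the control it was 54, against 4 and 3; at 0.75 µg/ml it was 291, against 158 and 113; between the doses it was 221, against 119 and 87. The level filter left 9971 genes, of which 8, 188 and 153 passed in the same order of comparisons. As shares these are 0.0802%, 1.89% and 1.53%, beside 0.277%, 1.49% and 1.13% of all named genes. No paired analysis was possible because each group has 1 array, and for the same reason no array could be left out. With 1 array per group, a difference of any size could not be set against variation between replicates. The spread of the positive controls describes these 3 arrays only. What those probe sets target is not given, so their spread is no limit of resolution. Whether a difference between values under background can be resolved with these arrays was not tested, and no fold is given for a member under background.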
